A study of Mus musculus with 20 samples.

Results

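The genes described here are the 7 writers and erasers of DNA methylation Dnmt1, Uhrf1, Dnmt3a, Dnmt3b, Tet1, Tet2 and Tet3, followed across 20 mouse melanoma samples. They were taken by symbol from the platform's gene names, with the row of the highest mean over all arrays for each gene. Each of the 7 had 1 row, so no member was selected on its level, though the set was proposed with differences between these groups in view. All 7 were among the 19504 genes tested. No filter on low values was applied.

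The samples came from UVB-induced melanomas of 2 genotypes. B;p38α mice carried Tyr::CreERT2;BrafCA/CA;p38αlox/lox and B mice carried Tyr::CreERT2;BrafCA/CA, so tumors of both genotypes express BrafV600E and differ by the conditional p38α allele. Both received 4-hydroxytamoxifen on the skin (5 mg/ml) on postnatal days 2.5 and 3.5 and 6.24 kJ/m2 of UVB on postnatal day 3.5. Each genotype was measured in CD45+ cells (3 B;p38α and 3 B samples), CD45- cells (3 and 3) and complete tumors (3 B;p38α and 5 B). Tumors were taken at endpoint size, and the ages of the mice at that point are not given in the sources used here. Cre is driven by the tyrosinase promoter, and the labels place the deletion in melanocytes; it was not measured here. The labels call the samples biological replicates and do not say whether CD45+ and CD45- samples of the same number share a tumor. For B;p38α replicate 2 the mean of the Y-linked genes was 3.01 in CD45+ and 8.81 in CD45- cells, so a shared mouse is unlikely for that number. Each sample was 1 array, and all values below are the authors' log2 expression values, in which a difference of 1 is a doubling of signal. Probes differ in brightness, so the level of a gene is compared only with itself in other samples.

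Dnmt1 and Uhrf1 maintain methylation of CpG dinucleotides through cell division. UHRF1 binds the half-methylated CpG left behind the replication fork and brings in DNMT1, which methylates the new strand. DNMT3A and DNMT3B place new methylation on unmethylated DNA. TET1, TET2 and TET3 oxidise 5-methylcytosine to 5-hydroxymethylcytosine and further products, which base excision repair replaces with cytosine. Loss of 5-hydroxymethylcytosine is a known feature of human melanoma, and TET2 is often mutated in human blood cancers.

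Before the members are described, 4 properties of the samples bear on them. Mapk14, the gene of p38α, was at 10.20 ± 0.21 in B;p38α and 10.39 ± 0.08 in B CD45+ cells, 9.64 ± 0.14 and 9.79 ± 0.23 in CD45- cells, and 9.79 ± 0.20 and 10.06 ± 0.11 in complete tumors (SD). It was not called in any genotype comparison, and where its probes lie relative to the deleted part is not given. The mean of 8 leukocyte markers was higher in CD45+ cells (10.66 ± 0.38 in B;p38α and 10.98 ± 0.09 in B) than in CD45- cells (7.21 ± 1.31 and 8.86 ± 0.21), and all 8 were called higher. CD45+ arrays also carried stromal signal: 7 fibroblast markers averaged 10.84 in both genotypes, against 11.33 in B;p38α and 11.58 in B CD45- cells, with 1 of 7 called, and all 6 endothelial markers were positive in CD45+ minus CD45- (median 1.06, 3 called). Within CD45- cells the mean of the leukocyte markers was 5.72 to 8.12 in B;p38α and 8.62 to 9.01 in B samples, without overlap. The mean of 7 melanocyte markers lay between 6.05 and 6.91 in every group mean, with Tyr at 3.78 to 4.69, Tyrp1 at 4.49 to 5.75 and Sox10 at 9.87 to 11.40. Y-linked genes were low (3.85 or less) in every complete and CD45+ sample of B;p38α tumors and reached 8.81 in a B;p38α CD45- sample. In B samples their mean ran from 2.76 to 9.29 in complete tumors, 4.3 to 8.67 in CD45+ and 2.79 to 8.6 in CD45- cells. The sample labels do not give the sex of the mice, and these values were not balanced between the genotypes. B CD45- replicate 1 had the narrowest spread of values, an interquartile range of 2.95 log2 units against 3.40 to 3.89 in the other arrays.

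**Figure D1:**
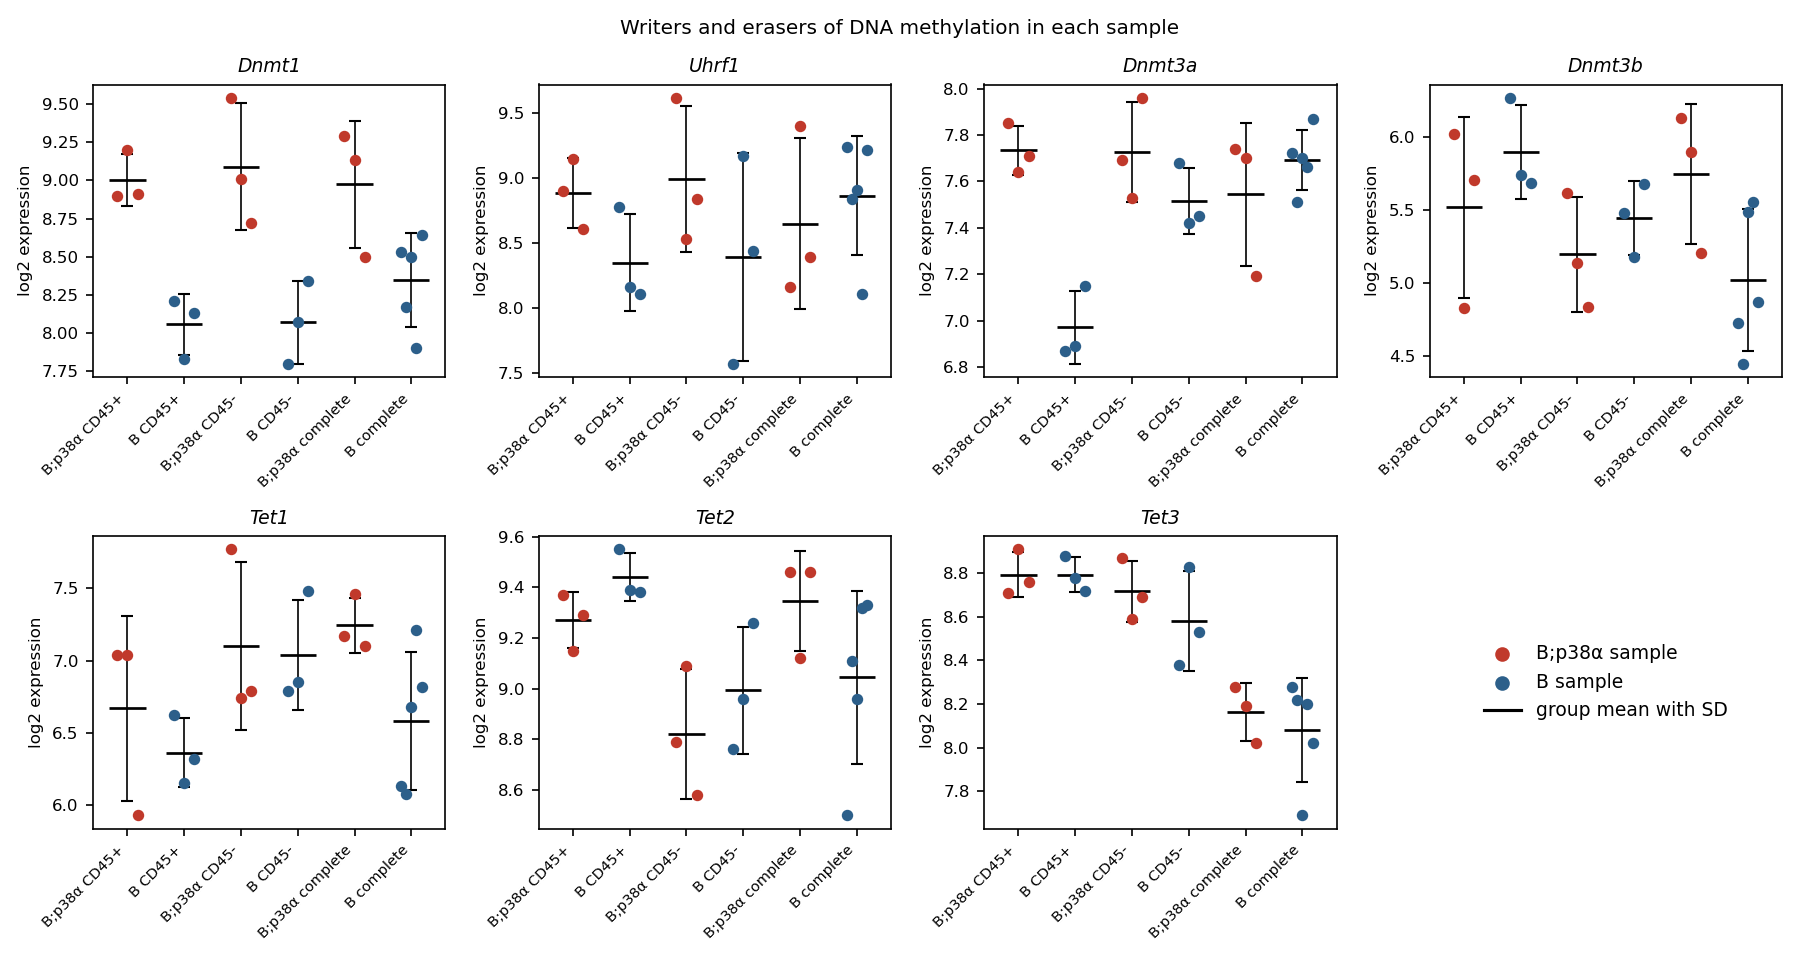
Log2 expression (y axis) of Dnmt1, Uhrf1, Dnmt3a, Dnmt3b, Tet1, Tet2 and Tet3 in each sample by group (x axis), with points for samples in red for B;p38α and blue for B, and black lines for the group mean and SD. The B;p38α samples of Dnmt1 lie above the B samples in CD45+ and in CD45- cells, Dnmt3a is lowest in B CD45+ cells, and Tet3 is lowest in the complete tumors of both genotypes.

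Dnmt1 showed the clearest genotype pattern of the 7 genes. In CD45+ cells it was at 8.90, 9.20 and 8.91 in B;p38α tumors, against 8.21, 7.83 and 8.13 in B tumors. In CD45- cells it was at 9.54, 9.01 and 8.72 in B;p38α tumors, against 7.80, 8.07 and 8.34 in B tumors. In both sorted populations all 3 B;p38α samples were higher than all 3 B samples. The share of all genes with this pattern in both populations is not given here, and the shares for each population alone follow below. In such bulk RNA, a change in the share of cells that express a gene and a change of RNA per cell cannot be told apart. Complete B;p38α tumors had 9.29, 9.13 and 8.50, against 8.53, 8.17, 8.50, 7.90 and 8.64 in complete B tumors. Here 2 of the 3 B;p38α samples were above every B sample, and the third lay within the B range.

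The difference B;p38α minus B of Dnmt1 was 0.95 (SE 0.18) in CD45+ cells, 1.02 (SE 0.28) in CD45- cells and 0.62 (SE 0.24) in complete tumors. In limma's moderated test, adjusted over all 19504 genes by the Benjamini-Hochberg method, the adjusted p was 0.3915, 0.6754 and 0.7325 in that order. None of the 7 genes was called at an adjusted p under 0.05 in any of the 3 comparisons, where 0%, 0.0103% and 0% of all genes were called. At an unadjusted p under 0.05 the members counted 2, 1 and 3 of 7, against 10.8%, 6.76% and 6.61% of all genes. Samples of the 2 genotypes did not overlap for Dnmt1, Dnmt3a and Tet2 in CD45+ cells, for Dnmt1 in CD45- cells and for none of the 7 in complete tumors. That background was 16.5%, 16% and 4.46% of all genes.

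Averaged over CD45+ cells, CD45- cells and complete tumors in a fit of all 6 groups, Dnmt1 was 0.86 higher in B;p38α than in B (SE 0.14, 95% confidence interval 0.57 to 1.16), a ratio of 1.82. Its adjusted p in limma was 0.01323, and it was the only one of the 7 members among the 27 genes called, which are 0.138% of those tested. This average was added after the members' values had been seen, and Dnmt1 was chosen with earlier results of these data known. The p is therefore not independent support for the difference. The fit also took every array as independent, though it is not known whether CD45+ and CD45- samples share tumors. If some do, the interval and the adjusted p could be too confident. The call rested on single arrays in part. Without B;p38α CD45+ replicate 2 the adjusted p was 0.05198, and without B CD45- replicate 1 and B CD45+ replicate 2, the arrays of narrowest range, the difference was 0.78 with an adjusted p of 0.08187. With the mean of the Y-linked genes as a covariate it was 0.80 with an adjusted p of 0.07675. Leukocyte and macrophage markers moved with genotype too: all 8 and all 7 were negative in the averaged difference, with medians of -0.85 and -0.91 and 0 called, and their part in the result for Dnmt1 was not tested. The genotype difference of Dnmt1 in CD45+ cells minus that in CD45- cells was -0.07 (95% confidence interval -0.80 to 0.66, adjusted p = 0.9999 in limma).

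**Figure D2:**
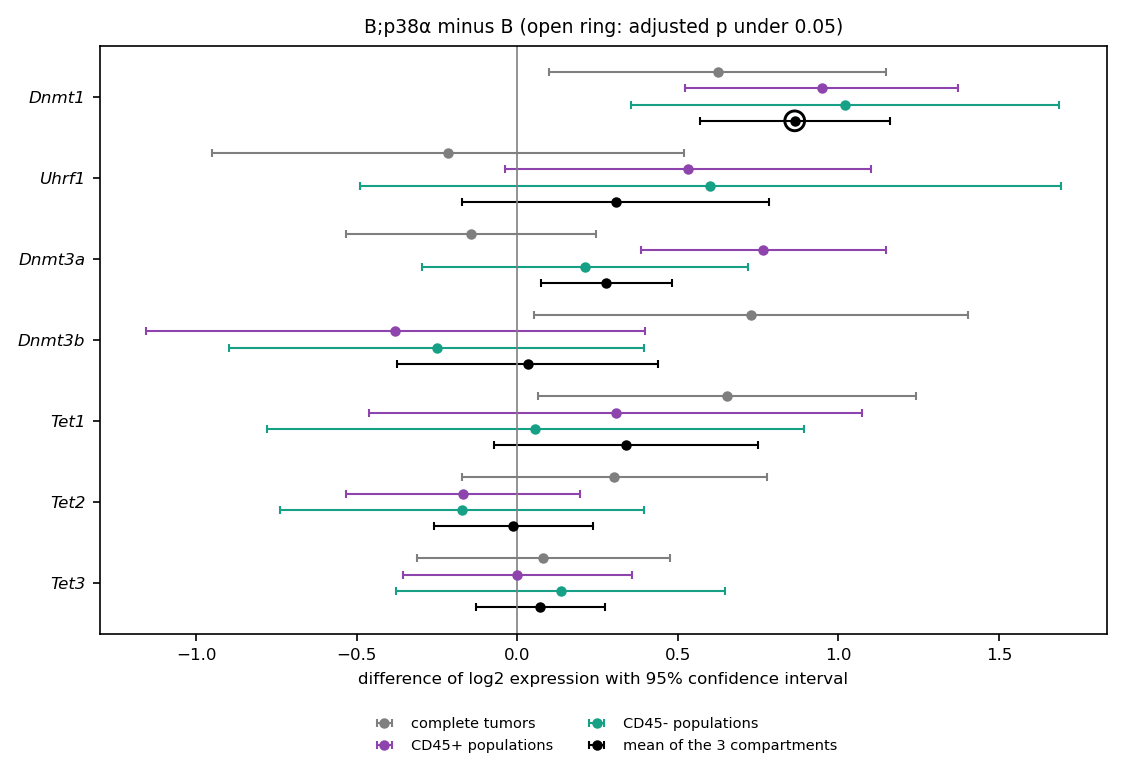
Difference B;p38α minus B in log2 expression (x axis) with its 95% confidence interval for each gene (y axis), in complete tumors (grey), CD45+ cells (purple), CD45- cells (green) and averaged over the 3 compartments (black). Dnmt1 is positive in each compartment, and its average of 0.86 is the only value ringed for an adjusted p under 0.05.

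Uhrf1, the partner that brings DNMT1 to replicated DNA, varied widely among samples of 1 group. In CD45+ cells it was at 8.90, 9.15 and 8.61 in B;p38α tumors, against 8.78, 8.16 and 8.11 in B tumors. In CD45- cells the B;p38α samples had 9.62, 8.53 and 8.84, against 7.57, 9.17 and 8.44 in B samples. Complete tumors had 8.16, 9.40 and 8.39 in B;p38α, against 9.24, 8.84, 8.91, 8.11 and 9.22 in B. The genotypes overlapped in every compartment. The difference was 0.53 (SE 0.24) in CD45+ cells, 0.60 (SE 0.46) in CD45- cells and -0.22 (SE 0.33) in complete tumors, with adjusted p of 0.4753, 0.6879 and 0.938 in limma. The CD45- value was 0.19 without B replicate 1 and 0.99 without B replicate 2. Its SD within groups was 0.54, larger than that of 83.4% of genes, and only 22.1% of its variance lay between the 6 groups, against 73.0% for Dnmt1 and a median of 42.3% over all genes.

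Most of that spread of Uhrf1 ran with the proliferation genes. The mean of 16 genes of the cell cycle and DNA replication, such as Mki67, Top2a and Mcm2, averaged 8.54 ± 0.28 in B;p38α and 7.97 ± 0.47 in B CD45+ cells, 8.44 ± 0.63 and 8.03 ± 0.70 in CD45- cells, and 8.36 ± 0.66 and 8.47 ± 0.40 in complete tumors (SD). Across the 6 CD45+ samples Uhrf1 correlated with this mean at r = 0.936 (Spearman's rho = 0.886, exact permutation p = 0.008333, Benjamini-Hochberg adjusted 0.025). Across the 6 CD45- samples r was 0.985 (rho = 0.943, exact permutation p = 0.002778, adjusted 0.0125), and across the 8 complete tumors it was 0.923 (rho = 0.952, exact permutation p = 0.001265, adjusted 0.01138). Leaving out the 2 samples farthest from the median of the proliferation mean gave r of 0.883, 0.948 and 0.869. The tests were two-sided and belonged to a family of 9, and the adjusted exact permutation p of rho was 0.1, 0.075 and 0.01027 in the same order. Uhrf1 is not in the list of 16, but both measures come from the same arrays and share their quality.

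For Dnmt1 the relation with the proliferation genes did not pass the test in any compartment, with 6 or 8 samples in each. Over the 20 arrays the r of Dnmt1 with the proliferation mean was 0.52, and 0.52 with group means removed, and these were not tested. So few samples cannot show that Dnmt1 and the proliferation genes are unrelated. Its r with the same mean was 0.801 in CD45+ cells, 0.624 in CD45- cells and 0.142 in complete tumors (exact permutation p adjusted over the 9 relations 0.115, 0.2375 and 0.7284; rho 0.714, 0.486 and 0.286, adjusted exact p 0.245, 0.4 and 0.5008). Without the 2 farthest samples r was 0.272, -0.77 and 0.803. Between Dnmt1 and Uhrf1 themselves r was 0.823, 0.682 and 0.22 (rho 0.771, 0.6 and 0.405), none of which passed after adjustment (0.115, 0.1875 and 0.6649 for r and 0.2312, 0.3625 and 0.4 for rho by exact permutation), and without the 2 farthest samples it was 0.48, -0.54 and 0.604. All 16 proliferation genes were positive in the averaged genotype difference, from 0.05 to 0.52 with a median of 0.26, and 0 were called by limma. The compartments differed in this: 16 of 16 were positive in CD45+ cells (median 0.54), 15 in CD45- cells (0.41) and 3 in complete tumors (-0.06). With the proliferation mean as a covariate, Dnmt1 was 0.77 higher in B;p38α with an adjusted p of 0.02866 in limma.

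**Figure D3:**
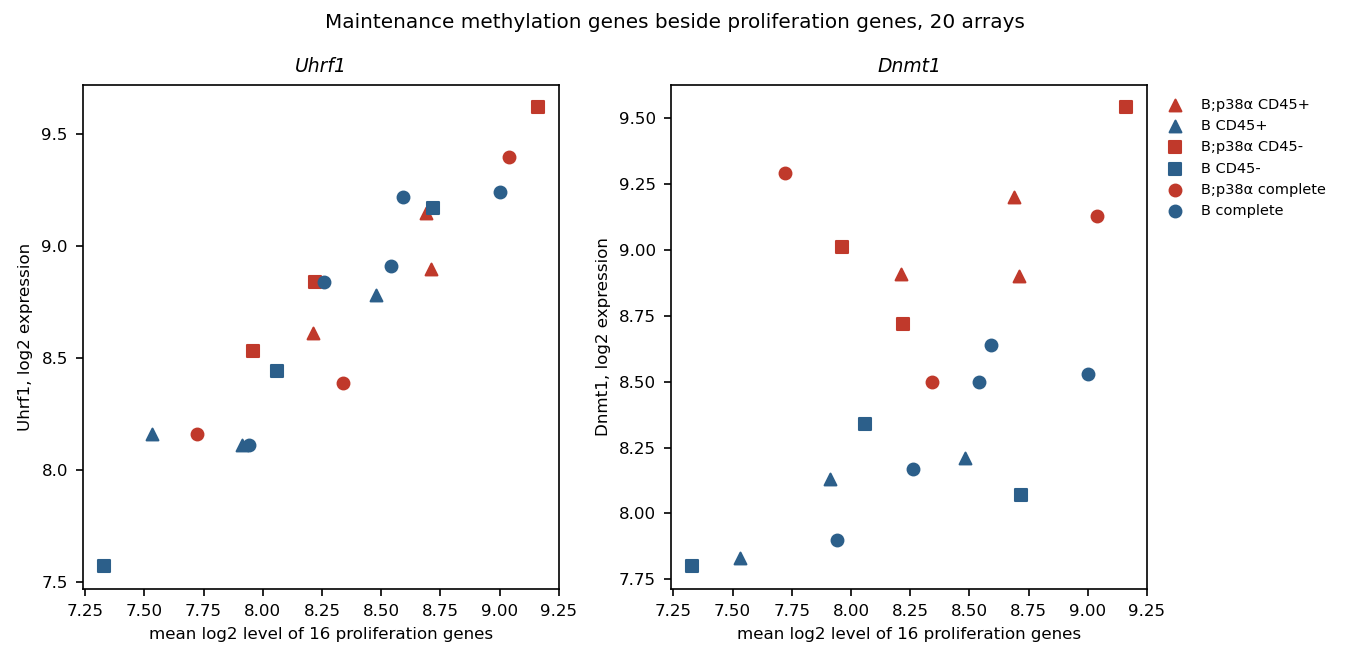
Log2 expression of Uhrf1 (left) and Dnmt1 (right) on the y axes against the mean log2 level of 16 proliferation genes on the x axis, 1 point for each of the 20 arrays, in red for B;p38α and blue for B and with a shape for each compartment. Uhrf1 rises with the proliferation mean across samples of both genotypes, whereas for Dnmt1 the red points lie mostly above the blue ones at a given proliferation mean.

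Promoter sequence is shown for Dnmt1 and Uhrf1 because E2F factors, which drive genes of DNA replication, are known to bind sites with the core letters searched here. The RefSeq table for GRCm38.p6 held 12 windows for the 7 members, each of 250 bases before and 50 after an annotated start. The motifs TTTCCCGC, TTTCGCGC, TTTGCCGC and TTTGGCGC were searched on both strands. They occurred in 2.26% of all 32851 windows and in 2 of the 12 windows of the members, 1 of Dnmt1 and 1 of Uhrf1. Each excerpt is written 5′ to 3′ on the gene's strand with the match in capitals, at chr9:20952805-20952872 on the minus strand for Dnmt1 and at chr17:56304098-56304165 on the plus strand for Uhrf1.
Dnmt1: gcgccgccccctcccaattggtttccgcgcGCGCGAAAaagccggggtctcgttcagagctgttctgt
Uhrf1: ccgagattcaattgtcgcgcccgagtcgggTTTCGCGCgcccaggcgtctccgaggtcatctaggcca
The match begins 219 bases before an annotated start of Dnmt1, where it reads TTTCGCGC on the opposite strand, and 185 bases before an annotated start of Uhrf1. The Dnmt1 window held a second match, TTTGGCGC, that begins 33 bases after that start. Both genes also have annotated starts farther upstream, whose windows held no match, and the matches lie downstream of those starts. Both windows with a match held 33 CpG dinucleotides, against a median of 7 over all windows. The share of 2.26% was not matched for CpG content. The single window of Tet2 held 57, more than 99.8% of windows. No binding was measured here.

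Dnmt3a, which places new methylation and is the main de novo enzyme of many adult cells, differed most among CD45+ cells. There it was at 7.85, 7.64 and 7.71 in B;p38α tumors, against 6.87, 6.89 and 7.15 in B tumors. The B CD45+ samples were the lowest 3 of all 20. In CD45- cells Dnmt3a had 7.69, 7.53 and 7.96 in B;p38α, against 7.68, 7.42 and 7.45 in B. Complete tumors had 7.74, 7.70 and 7.19 in B;p38α, against 7.72, 7.51, 7.70, 7.66 and 7.87 in B. The genotypes overlapped in these last comparisons, and B;p38α replicate 3 was the lowest complete tumor.

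The difference B;p38α minus B of Dnmt3a was 0.77 (SE 0.16, adjusted p = 0.3951 in limma) in CD45+ cells, 0.21 (SE 0.21, 0.7394) in CD45- cells and -0.14 (SE 0.17, 0.9171) in complete tumors. The CD45+ difference exceeded the CD45- difference by 0.56 (95% confidence interval 0.02 to 1.10), with an unadjusted p of 0.04421 and an adjusted p of 0.9999 in limma, where 0% of all genes were called and 1.95% had an unadjusted p under 0.05. Among B tumors CD45+ minus CD45- was -0.55 (SE 0.17, adjusted p = 0.1118 in limma), and among B;p38α tumors it was 0.01 (SE 0.17, adjusted p = 0.993). In those B;p38α and B comparisons of sorted cells, 4.78% and 4.66% of genes were called. Averaged over the compartments the genotype difference of Dnmt3a was 0.28 (SE 0.10, adjusted p = 0.1725 in limma). In CD45+ cells all 16 proliferation genes were positive (median 0.54), all 6 endothelial markers negative (-0.89) and 5 of 6 keratinocyte markers negative (-0.86), with 0 called, and their part in the value for Dnmt3a was not tested. Dnmt3a was among the steadier genes within groups, with an SD of 0.18 that was larger than that of 8.0% of genes.

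Dnmt3b, the de novo enzyme best known from early embryos and pluripotent cells, had a mean level below that of most genes on these arrays, with 31.5% of genes lower. In CD45+ cells it was at 6.02, 4.83 and 5.71 in B;p38α, against 6.27, 5.74 and 5.69 in B. In CD45- cells it had 5.62, 5.14 and 4.84 in B;p38α, against 5.48, 5.18 and 5.68 in B. Complete tumors had 6.13, 5.90 and 5.21 in B;p38α, against 4.73, 4.45, 5.49, 5.56 and 4.87 in B. In complete tumors 2 of 3 B;p38α samples were above all B samples, and in sorted cells the genotypes overlapped with no side clearly higher. The differences were -0.38 (SE 0.33), -0.25 (SE 0.27) and 0.73 (SE 0.30), with adjusted p of 0.6484, 0.7525 and 0.7422 in limma. With each array left out, the values ran from -0.63 to -0.034 in CD45+ and from -0.46 to -0.071 in CD45- cells (the extremes without B;p38α replicates 1 and 2, and 1 and 3). Averaged over the compartments it was 0.03 (95% confidence interval -0.37 to 0.44).

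Tet1, an oxidising enzyme with a CpG-binding CXXC domain, had an SD within groups of 0.46, next to 0.45 for Dnmt3b. In CD45+ cells it was at 7.04, 7.04 and 5.93 in B;p38α, against 6.62, 6.15 and 6.32 in B, and replicate 3 of B;p38α was the lowest of all 20 samples. In CD45- cells it had 7.77, 6.74 and 6.79 in B;p38α, against 6.79, 6.85 and 7.48 in B. Complete tumors had 7.17, 7.46 and 7.10 in B;p38α, against 6.13, 6.08, 6.68, 7.21 and 6.82 in B. The genotypes overlapped in each compartment. The differences were 0.31 (SE 0.33), 0.06 (SE 0.35) and 0.65 (SE 0.26), with adjusted p of 0.7123, 0.9655 and 0.7422 in limma. The CD45+ value was 0.12 without B;p38α replicate 1 and 0.68 without B;p38α replicate 3. CD45+ minus CD45- cells gave -0.55 for Tet1 (SE 0.26, adjusted p = 0.2157 in limma).

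Tet2, the TET enzyme best known in blood cells, had a higher mean in CD45+ than in CD45- cells in both genotypes. In CD45+ cells it was at 9.37, 9.15 and 9.29 in B;p38α, against 9.55, 9.39 and 9.38 in B, so that all B;p38α samples were lower, by a narrow gap. CD45- cells had 8.79, 9.09 and 8.58 in B;p38α, against 8.76, 8.96 and 9.26 in B. Complete tumors had 9.46, 9.12 and 9.46 in B;p38α, against 8.50, 9.11, 8.96, 9.32 and 9.33 in B, with B replicate 1 the lowest. The genotype differences were small, at -0.17 (SE 0.16) in CD45+ cells, -0.17 (SE 0.24) in CD45- cells and 0.30 (SE 0.21) in complete tumors. Their adjusted p in limma were 0.6655, 0.8047 and 0.8522. The average of -0.01 had a 95% confidence interval from -0.26 to 0.23.

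CD45+ minus CD45- cells gave 0.45 for Tet2 in B;p38α and 0.45 in B tumors (SE 0.19 each), or 0.45 (SE 0.13) over both, with an adjusted p of 0.05044 in limma that missed the threshold by little. Of all genes 12.2% were called in that comparison, and none of the 7 members was. The adjusted p ranged from 0.02696 with a trended prior to 0.1472 with a block by genotype and replicate number over the alternatives that kept every array, and from 0.03279 to 0.1188 when each array was left out. The leukocyte markers moved the same way, with a median of 2.79 over the 8, as did the 6 endothelial markers, and their part in the value for Tet2 was not tested.

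Tet3 had the most regular pattern across the compartments. In CD45+ cells it was at 8.71, 8.91 and 8.76 in B;p38α, against 8.88, 8.78 and 8.72 in B. In CD45- cells it had 8.87, 8.59 and 8.69 in B;p38α, against 8.38, 8.83 and 8.53 in B. Complete tumors had 8.28, 8.19 and 8.02 in B;p38α, against 8.28, 8.22, 7.69, 8.20 and 8.02 in B. Every sorted sample was higher than every complete tumor, while the genotypes overlapped in all 3 compartments. How many of all genes separated sorted samples from complete tumors in this way was not counted, so the separation is not read as particular to Tet3. Of the variance of Tet3, 80.8% lay between the 6 groups.

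Tet3 was higher in CD45+ cells than in complete tumors by 0.67 (SE 0.12, adjusted p = 0.000375 in limma), a ratio of 1.59, where 25.8% of all genes were called. It was higher in CD45- cells than in complete tumors by 0.53 (SE 0.12, adjusted p = 0.007604), a ratio of 1.44, where 12.7% were called. Both comparisons use the same complete tumors, so they are not independent, and Tet3 was the only one of the 7 members called in either. A share of 1 of 7 is near or below those backgrounds. The calls held without each array in turn, with adjusted p up to 0.00167 and 0.0258. CD45+ minus CD45- cells gave 0.15 (95% confidence interval -0.12 to 0.41). The genotype differences of Tet3 were -0.0001 (SE 0.15), 0.13 (SE 0.22) and 0.08 (SE 0.18) in CD45+ cells, CD45- cells and complete tumors, and their average of 0.07 had a 95% confidence interval from -0.13 to 0.27.

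Muscle and adipocyte markers moved with that difference. All 5 muscle markers were lower in CD45+ and in CD45- cells than in complete tumors, with median differences of -4.27 and -4.13, and 3 of 5 adipocyte markers were called lower in each. The mean of the muscle markers was 5.18 to 5.63 in B;p38α and 5.52 to 5.90 in B CD45+ samples, 5.35 to 5.55 and 5.15 to 5.77 in CD45- samples, and 5.83 to 10.71 and 10.25 to 10.99 in complete tumors. Sorted cells also went through mechanical and enzymatic dissociation, which complete tumors did not, and the part of either in the difference was not tested.

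**Figure D4:**
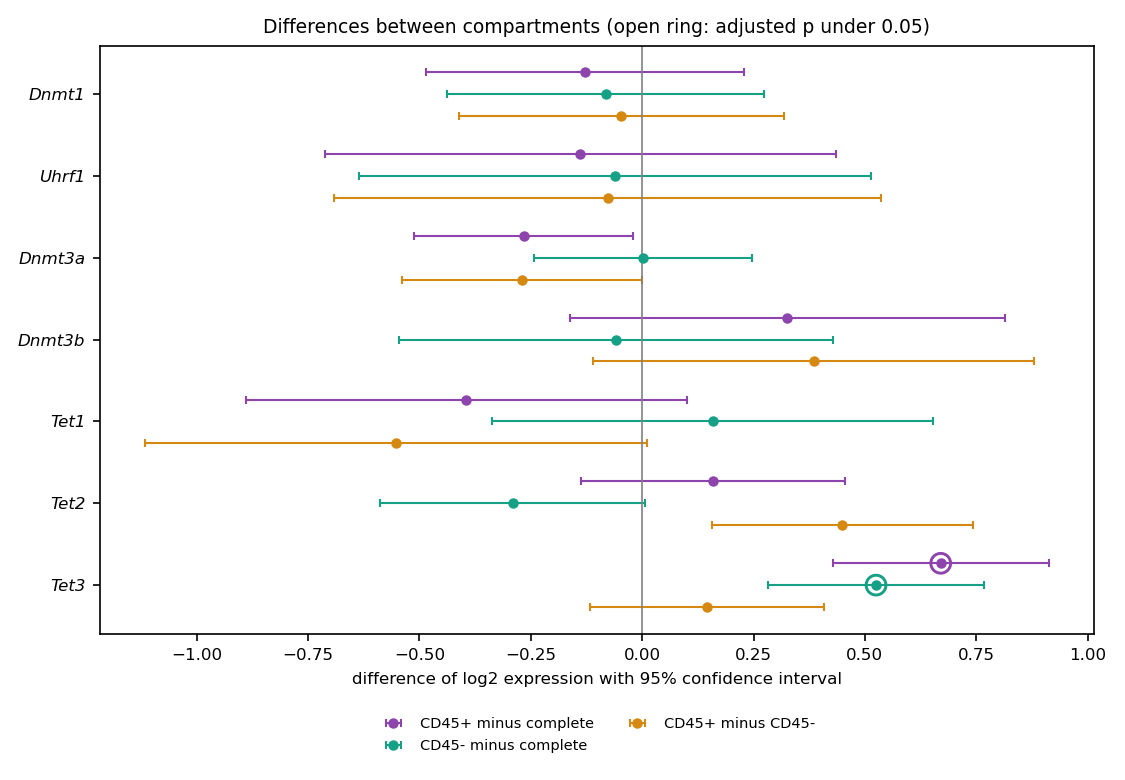
Differences in log2 expression (x axis) with 95% confidence intervals for each gene (y axis), as CD45+ minus complete (purple), CD45- minus complete (green) and CD45+ minus CD45- (orange), each the mean of both genotypes. Tet3 is ringed for an adjusted p under 0.05 in both comparisons with complete tumors, at 0.67 and 0.53, and no other gene is ringed.

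For the remaining members the compartments differed less than the tests could call. Dnmt3a was at -0.27 in CD45+ cells relative to complete tumors (SE 0.12, adjusted p = 0.105 in limma), and without B;p38α complete tumor 3 this was -0.35 with an adjusted p of 0.03204. Dnmt1 gave -0.13 (95% confidence interval -0.49 to 0.23) for CD45+ and -0.08 (-0.44 to 0.27) for CD45- cells against complete tumors. Uhrf1 gave -0.14 (-0.71 to 0.44) and -0.06 (-0.64 to 0.51).

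Ordered by group mean, Dnmt1 stood at 9.09 in B;p38α CD45-, 9.01 in B;p38α CD45+, 8.97 in B;p38α complete, 8.35 in B complete, 8.07 in B CD45- and 8.06 in B CD45+ samples, so that the 3 B;p38α groups came before the 3 B groups. Only the step of 0.62 between the genotypes' complete tumors exceeded the pooled SD of the neighbours, at 0.36, and their ranges still overlapped. For Dnmt3a the order ran from 7.74 in B;p38α CD45+ to 6.97 in B CD45+ samples, and only the last step, 0.55 below B CD45-, was larger than the pooled SD of 0.15. For Tet3 it ran from 8.79 in CD45+ samples of both genotypes to 8.08 in complete B tumors, with a single step beyond the SD of 0.19, the 0.42 between B CD45- cells and complete B;p38α tumors. Among Uhrf1, Dnmt3b, Tet1 and Tet2 no neighbouring groups differed by more than their pooled SD.

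The genes most like each member were taken as the 5 with the highest Pearson r of log2 values over the 20 arrays, which come from 6 groups. Dnmt1 was most like Hjurp, the chaperone that loads the centromeric histone CENP-A, at r = 0.884, and that r was 0.605 once group means were removed. Wnt16 (0.828), Zfp523 (0.823), Ethe1 (0.809) and Wdr34 (0.805) followed. Uhrf1 was most like Ube2s (0.924), Exo1 (0.923), Mcm5 (0.914), a subunit of the replicative helicase, Cdk1 (0.907), the kinase of mitotic entry, and E2f7 (0.90), and with group means removed its r with Mcm5 was 0.951. Tet1 was most like Qser1, whose human product is known to guard developmental promoters from de novo methylation together with TET1, at r = 0.846 and at 0.839 without the group means, ahead of Pcdhb18 (0.828), Dixdc1 (0.818), Homer2 (0.806) and Arap2 (0.801). Tet2 was most like Eif2ak4 (0.879), a kinase that senses amino acid shortage, then Zfp106 (0.827), Lcor (0.789), Gpr82 (0.784) and Srrm1 (0.781). Tet3 was most like Bicral and Csnk1d (0.914 each), Rac1 (0.907), Wbp2 and Pcbp2 (0.905 each). With group means removed these fell to 0.558, 0.659, 0.666, 0.583 and 0.719 in the same order. Dnmt3a was most like Mia and Shc2 (0.843 each), Mtch1 (0.809), Hes3 (0.798) and Trmu (0.792). For Dnmt3b the values were lower, with B4galt4 at 0.747, Pias1 at 0.683, Tlr3 and Skil at 0.668 each and 5430402E10Rik at 0.664. The highest r of the 7 members with each other that involved Dnmt1 was with Uhrf1, at 0.56 over the 20 arrays and 0.59 without group means.

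The other genes of the pathway were looked at in 7 lists, which were chosen with earlier results of these data known. None of their 56 measured genes was called in any genotype comparison. In the difference averaged over the compartments, the 6 partners of maintenance (Uhrf2, Hells, Cdca7, Usp7, Pcna and Lig1) split into 3 positive and 3 negative, with a median of 0.05, against 0.02 over all genes. The largest was Cdca7, which activates the remodeler HELLS, at 0.50 (SE 0.23, adjusted p = 0.2709 in limma). Of the 6 partners of de novo methylation 5 were positive, with a median of 0.23 and Zfp57, which keeps imprints, at 0.49 (SE 0.19, adjusted p = 0.2094). The list of base excision after oxidation, which also counts the Gadd45 genes, had 10 measured genes with a median of 0.25, 9 of them positive and Lig3 at 0.37. The list named for readers of methylated CpG had 5 measured genes and a median of 0.13. Its largest value was that of Mbd3, a subunit of the NuRD complex, at 0.49 (SE 0.15, adjusted p = 0.1333 in limma). Whether each gene of that list binds methylated CpG was not measured. The 6 TET partners had a median of 0.07 and the 7 genes of the methyl donor cycle one of 0.13.

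Germline genes whose promoters are methylated in somatic cells were set beside the enzymes because they are known to be expressed when Dnmt1 is lost in mouse cells. Their 16 genes had a mean of 4.01 ± 0.06 in B;p38α and 4.06 ± 0.03 in B CD45+ cells, 4.09 ± 0.09 and 4.19 ± 0.33 in CD45- cells, and 4.05 ± 0.07 and 4.09 ± 0.11 in complete tumors (SD). The ranges of that mean overlapped between the genotypes in every compartment. In the averaged difference 4 were positive and 12 negative, with a median of -0.10, Dazl at -0.36 and Sycp1 at 0.56, and none was called by limma (adjusted p = 0.371 and 0.3584). The group means of the germline list lay below the array medians of 6.78 to 6.98, so a fall would be hard to see. Dnmt1 was higher, not lost, in the averaged difference, so these values cannot show a change in methylation. DNA methylation itself was not measured.

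**Figure D5:**
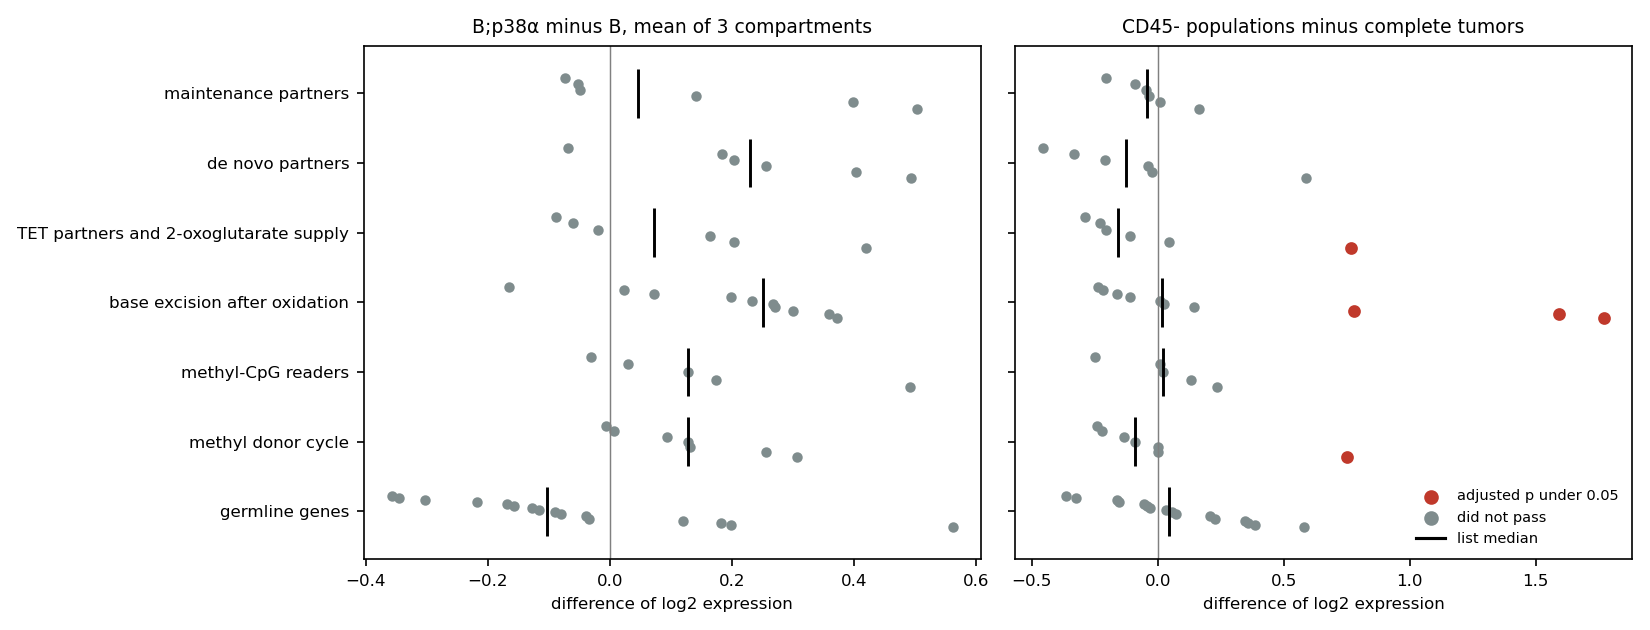
Differences in log2 expression (x axes) of the genes in 7 lists of the DNA methylation pathway (y axis), as B;p38α minus B averaged over the 3 compartments (left) and CD45- minus complete (right), with a black line at each list's median and red points for an adjusted p under 0.05. No gene is red on the left, and 3 Gadd45 genes, Cxxc5 and Shmt2 are red on the right.

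Between compartments, 7 of the 56 genes in these lists (12.5%) were called for CD45+ cells against complete tumors, 5 (8.93%) for CD45- cells against complete tumors and 3 (5.36%) for CD45+ against CD45- cells. Each share is below that of all genes, at 25.8%, 12.7% and 12.2%. The Gadd45 genes, which encode small stress-induced proteins that have been linked to active demethylation, were among them. Relative to complete tumors, Gadd45b was 2.64 higher in CD45+ cells (SE 0.27, adjusted p = 2.688e-06 in limma) and 1.77 higher in CD45- cells (SE 0.27, 0.001033). Gadd45g was 2.10 higher (SE 0.20, 1.382e-06) and 1.59 higher (SE 0.20, 0.0003869), and Gadd45a 0.59 higher (SE 0.15, 0.006485) and 0.78 higher (SE 0.15, 0.002969). Both sorted populations were thus above the complete tumors for all 3, as they were for Tet3, in comparisons that share the complete tumors. Only sorted cells were dissociated, and complete tumors carried more muscle and adipocyte signal. The part of either in these differences was not tested. Cxxc5, whose product carries a CXXC domain like that of TET1, was 0.77 higher in CD45- cells than in complete tumors (SE 0.16, adjusted p = 0.005871 in limma) and 0.75 lower in CD45+ than in CD45- cells (SE 0.20, 0.03011). Shmt2, a mitochondrial enzyme of one-carbon metabolism, was 0.75 higher in CD45- cells than in complete tumors (SE 0.20, adjusted p = 0.02312). In CD45+ cells relative to complete tumors, Zfp57 fell by 0.95, Idh1, which makes the 2-oxoglutarate that TET enzymes need, by 0.46, and Smug1 and Zbtb33 by 0.42 and 0.37 (adjusted p 0.004916, 0.02292, 0.03001 and 0.04441 in limma).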

How the data were processed

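Complementary DNA of total RNA was labeled with biotin and hybridised, 1 array per sample. The authors deposited log2 expression values made with RMA, per the submitters' processing notes, so background correction, normalization and probe summarization were complete before deposition. No source used here says whether RMA was run on all arrays at once. The table had 21244 rows for 20 arrays with values from 1.31 to 14.15 and array medians from 6.78 to 6.98. The platform annotation gave 19570 rows 1 symbol, 0 several and 1674 none. The row of the highest mean was kept per gene (66 left out), which left 19504 genes. Names and promoters come from RefSeq (GRCm38.p6). The number of arrays limits the precision, and p-values rest on the spread among these samples.

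Differences were fitted with limma 3.58.1 in R 4.3.3 (lmFit and eBayes) across all genes, with Benjamini-Hochberg adjustment and a threshold of 0.05, per compartment for genotype, over the 4 sorted groups for CD45+ against CD45-, and over all 6 groups otherwise. The fits were tested on simulated data. Correlations have exact permutation tests. Figures were drawn with matplotlib 3.10.9. The members and lists were chosen with earlier results of these data known. The text names all members, Mapk14, the 5 genes most like each member, and, of each list described, genes past the threshold or among the 3 largest differences; melanocyte markers, Mki67, Top2a and Mcm2 are named as examples. Alternatives were a filter at the 30th percentile of means, repeated quantile normalization, array weights, a trended prior, every row, blocks, covariates and each array left out. No scan dates or other batches were given.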

Additional observations from a re-analysis of the deposited data

How the results depend on the processing

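The calls of Tet3 against complete tumors kept their direction and their side of the threshold in every alternative run, at 0.62 to 0.70 for CD45+ and 0.46 to 0.58 for CD45- cells when each array was left out. The averaged difference of Dnmt1 stayed positive throughout, at 0.79 to 0.94 when each array was left out, and lost its call without B;p38α CD45+ replicate 2, with the Y-linked mean as a covariate (0.80) and without the 2 arrays of narrowest range (0.78), when 0 members were called; the cause was not tested. Replicate numbers were shared across groups, but in none of the pairs of groups compared did every same-numbered pair of samples deviate together. Their correlations were -0.22 to 0.15 between genotypes in CD45+ cells, and -0.57 to 0.36 between CD45+ and CD45- cells of B tumors. Some differently numbered B samples deviated together more strongly. CD45+ replicate 1 with CD45- replicate 2 gave 0.603. CD45+ replicate 2 with CD45- replicate 1, the arrays of narrowest range, gave 0.617. Whether such samples share a tumor is not known. Same-numbered B CD45+ and B;p38α CD45- samples, which were not compared, did deviate together (0.135 to 0.268). The replicate block is therefore an alternative. With the replicate block the averaged difference of Dnmt1 was 0.85, no member gained or lost a call, and 27 genes were called in complete tumors against 0. With the block, the averaged difference of Tet2 turned to 0.048, and Dnmt3b in CD45- cells minus complete tumors to 0.0071. As a random block it gave 68 genes in the averaged comparison.

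Counts of called genes moved most. In CD45+ cells 0 genes were called for genotype, against 7 without dim genes, 5303 with array weights (4 of them members: Dnmt1 at 0.94, Uhrf1 at 0.85 against 0.53, Dnmt3a at 0.61 and Tet1 at 0.62 against 0.31), 5 with a trended prior, 1 with every row, 2 with all 6 groups and 250 with the Y-linked covariate. In complete tumors every row gave 1. In CD45- cells the count of 2 became 4 with array weights, 0 with all 6 groups and 1 with the Y-linked covariate. For the average the 27 genes became 97 without dim genes, 57 after repeated quantile normalization, 922 with array weights, 50 with a trended prior, 56 with every row, 15 with the Y-linked covariate, 17 without the 2 arrays of narrowest range and 16 with the 2 most alike arrays averaged. CD45+ minus CD45- gave 4275 genes with array weights against 2372, and 1 member, Tet2, without dim genes, after quantile normalization, with array weights and with a trended prior. CD45+ minus complete gave 7769 with array weights against 5037.

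Some differences that were not called changed sign. With array weights these were Tet3 in CD45+ cells (0.082), Tet1 in CD45- cells (-0.10), the CD45+ minus CD45- genotype differences of Dnmt1 (0.061), Uhrf1 (0.70) and Tet3 (0.066), and, for CD45- minus complete, Uhrf1 (0.026) and Dnmt3a (-0.02). With the Y-linked covariate they were Dnmt3b (0.053) and Tet3 (0.086) in CD45+ cells and Tet1 in CD45- cells (-0.044), and with the proliferation covariate the average of Tet2 (0.026). The causes were not tested.

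Leaving out each array in turn gave ranges of 0 to 49 called genes in complete tumors (49 without B replicate 4), 0 to 30 in CD45+ cells (30 without B;p38α replicate 3), 0 to 4 in CD45- cells, 12 to 249 for the average (249 without B;p38α CD45+ replicate 3), 0 to 1 for the CD45+ minus CD45- genotype difference and 1459 to 2990 for CD45- minus complete. The members called ranged from 0 to 1 for the average, from 0 to 1 for CD45+ minus CD45- cells and from 1 to 2 for CD45+ minus complete. Ranges that crossed 0 were, in complete tumors, -0.59 to 0.031 for Uhrf1, -0.24 to 0.031 for Dnmt3a and -0.017 to 0.15 for Tet3; -0.056 to 0.043 for Tet3 in CD45+ cells; -0.28 to 0.28 for Tet1 in CD45- cells; and for the average -0.052 to 0.15 for Dnmt3b and -0.058 to 0.032 for Tet2. They were also -0.14 to 0.066 for Dnmt1 and -0.28 to 0.12 for Uhrf1 in CD45+ minus CD45- cells, and -0.26 to 0.15 for Dnmt1, -0.46 to 0.34 for Uhrf1, -0.38 to 0.22 for Dnmt3b and -0.13 to 0.14 for Tet2 in the genotype difference of CD45+ minus that of CD45- cells. Against complete tumors they were -0.26 to 0.0499 for Uhrf1 in CD45+ cells, and -0.20 to 0.011 for Dnmt1, -0.25 to 0.14 for Uhrf1, -0.085 to 0.053 for Dnmt3a, -0.19 to 0.038 for Dnmt3b and -0.01 to 0.25 for Tet1 in CD45- cells.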

Other observations

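Other cell type markers gave these values in the difference B;p38α minus B averaged over the compartments, with 0 called in any list. Medians were -0.40 over 6 neutrophil markers, -0.25 over 7 T and NK cell markers, -0.15 over 3 B cell markers, -0.21 over 7 fibroblast markers, -0.59 over 6 endothelial markers, -0.51 over 6 keratinocyte markers, -0.45 over 7 melanocyte markers, -0.74 over 5 muscle markers and -0.55 over 5 adipocyte markers. The 3 Y-linked genes had a median of -2.27.

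In the comparison of CD45+ with complete tumors, 3 of the 16 proliferation genes were called lower by limma, Ccne2 at -0.99, Top2a at -0.94 and Tyms at -0.62, while Uhrf1 was at -0.14. In CD45+ relative to CD45- cells, the germline gene Mael was at -0.61 and the methyl-CpG reader Zbtb4 at -0.44, both called lower. Among pairs of arrays of 1 group the closest was replicates 1 and 2 of B;p38α CD45+ cells, with a correlation of 0.9906 over all genes.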
